A study of Mus musculus with 8 samples.

Results

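The respiratory chain genes examined here are all genes on the array whose symbol starts with Nduf, Sdha to Sdhd, Uqcr, Cox4 to Cox8 or Atp5 and that have a probe set naming a single gene. The rule found 94 genes of the 18193 with such a probe set. By role they are 73 subunits of complexes I to V (34, 4, 8, 10 and 17), 12 assembly factors, 8 isoforms or paralogs made mainly in particular tissues, and Cox7a2l, a factor of supercomplexes. Each gene was read from its probe set with the highest mean signal. The rule used names and mean signal over all arrays, and no difference between genotypes. The mitochondrially encoded subunits do not carry these prefixes and were not analysed here, and 8 further names of the rule, Ndufs6 and Ndufa11 among them, were found only on probe sets shared by several genes.

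RNA came from mature B cells of the spleen of 12-week-old C57BL/6 mice. Arrays of irf4-/- animals (Irf4 null, n = 4) were compared with arrays of irf4+/+ littermates (wild type, n = 4). Irf4 encodes a transcription factor of lymphocytes that plasma cell formation requires. The cells were purified magnetically, and no treatment, transgene or Cre is named. The labels give neither the sex of the mice nor the deleted part of Irf4. They also do not say that each array is a mouse of its own, and p-values therefore cover only the variation among these arrays, part of which may be technical.

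The respiratory chain sits in the inner mitochondrial membrane. Complex I takes electrons from NADH and complex II takes them from succinate, and both pass them through ubiquinone to complex III. Cytochrome c carries them to complex IV, which reduces oxygen, and the proton gradient so built drives ATP synthase, complex V. Dedicated assembly factors put the complexes together and are not part of the finished enzymes. In B cells, oxidative phosphorylation supplies ATP, and mitochondrial activity rises on activation.

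Values are array signals, an intensity per probe set that the authors had already scaled to an equal level on every array. Fold changes are differences of log2(signal + 16), Irf4 null relative to wild type, given ± their standard error. They were tested with limma, with Benjamini-Hochberg adjustment over all 27022 probe sets tested, and "called" means an adjusted p below 0.05. Arrays correlated with each other at 0.960 to 0.982. Signals of Irf4 itself were 2035, 1719.9, 1779 and 2341 (wild type) against 285, 259, 244 and 315 (Irf4 null), a fold change of -2.76 ± 0.12 (limma, adjusted p = 4.61e-06) on the log2 scale. The 6 B cell markers with a probe set summed to 69069.9 to 82039 in wild type and 71519 to 78130 in Irf4 null. RNA of the X-inactivation gene Xist split the arrays across genotype: wild-type arrays 1, 3 and 4 and Irf4 null array 1 were Xist-high, and the remaining 4, array 2 of wild type and arrays 2, 3 and 4 of Irf4 null, were Xist-low. Wild-type array 2 also stood apart in markers of other blood cells, whose values follow the members.

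In Irf4 null B cells most subunits of the respiratory chain lay slightly above wild type, and none of them passed the test. Of the 72 subunits tested, 62 had a log2 fold change above 0 and 10 below, with a median of 0.12, a 1.09-fold difference. Over all 11798 genes tested the median was 0.025, and 54.6% of genes were above 0. At an unadjusted p below 0.05 (limma), 21 of the 72 were higher and 0 lower, against 11.9% higher and 8.48% lower over all genes. The standard errors of the subunits were between 0.064 and 0.13, and no 95% interval of a subunit reached above 1.41-fold or below 0.710-fold. Bulk RNA does not separate fewer cells of a type from less RNA per cell: the 2 cannot be told apart here.

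Of the 89 members tested, 2 rose and 0 fell, to be read beside 4.37% called over all genes (2.67% higher, 1.7% lower). Both that rose, Sdhaf1 and Sdhaf4, build complex II and are no part of it. Sdhaf1 rose by 0.58 ± 0.13 (limma, adjusted p = 0.0295) and Sdhaf4 by 0.44 ± 0.085 (adjusted p = 0.0176). The 12 assembly factors had a median of 0.21. All Irf4 null arrays exceeded all wild-type arrays for 5 of the 12 assembly factors and 11 of the 72 subunits, against 7.13% of all genes; no member was lower on all Irf4 null arrays, against 5.71% of all genes. Whether assembly factors and subunits differ was not tested.

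**Figure D1:**
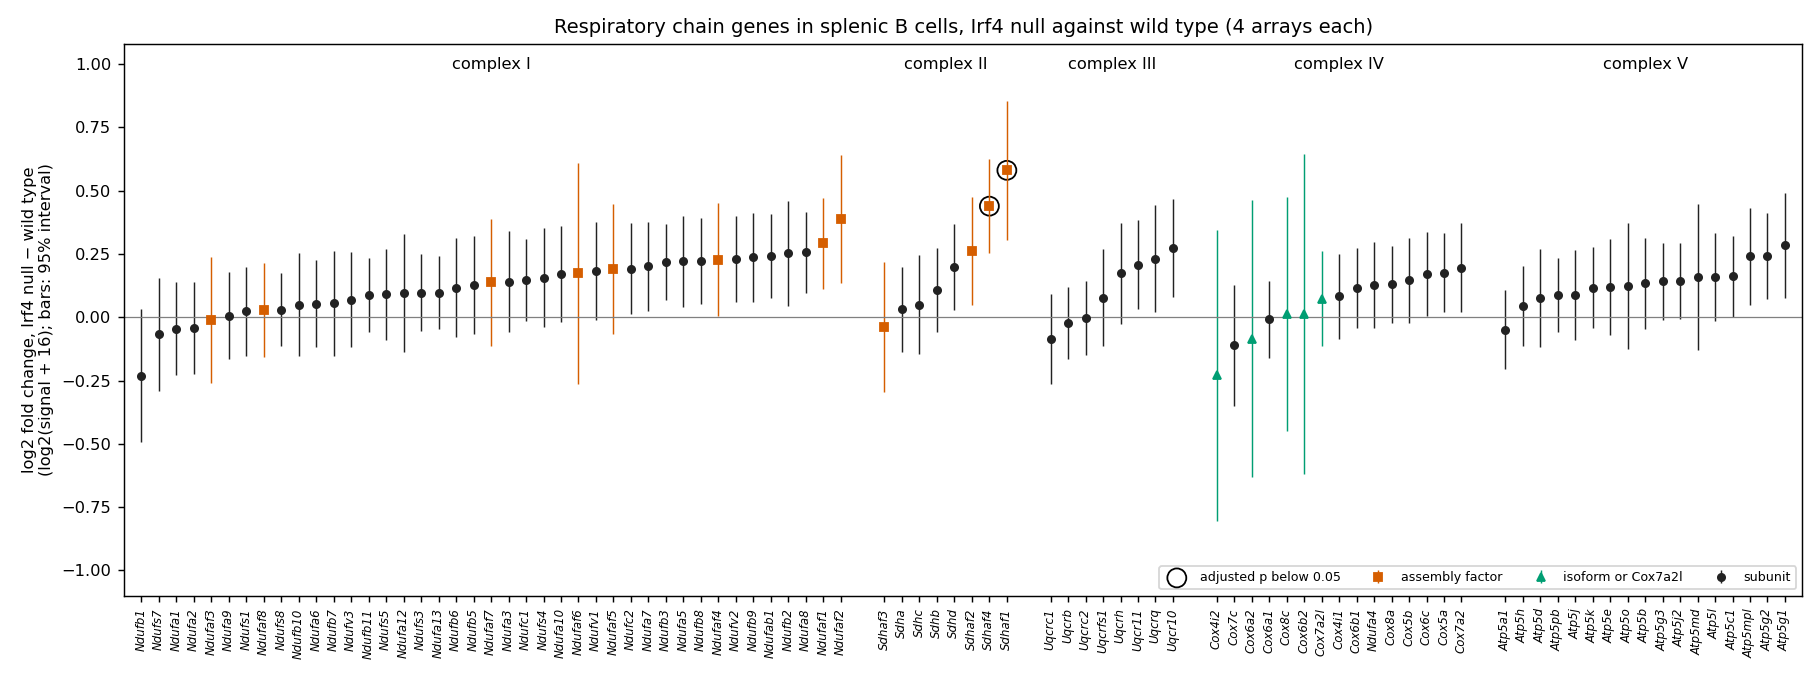
Log2 fold change of each of the 89 tested members (vertical axis, Irf4 null minus wild type, 4 arrays each) with its 95% interval, ordered by complex and size along the horizontal axis; black circles are subunits, orange squares assembly factors, green triangles tissue isoforms and Cox7a2l, and rings mark an adjusted p below 0.05. Of the 72 subunits 62 lie above 0, and the rings are on Sdhaf4 and Sdhaf1.

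The remaining 5 of the 94 members were too dim to test, in the lowest 40% of probe sets by mean log2 value. Cox7a1, Cox8b, Cox7b2 and Ndufa4l2 are isoforms or paralogs best known from other tissues, with signals of at most 63.96, 13.8, 20.3 and 55.8 on any array. Ndufb4, an accessory subunit of complex I, lay between 26.3 and 62.5. Signals this low were not compared.

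Complex I, NADH dehydrogenase, is the largest enzyme of the chain. Of its 33 tested subunits 29 were above 0 and 4 below, with a median of 0.12; 0 were called (limma; 10 higher and 0 lower at an unadjusted p below 0.05). The core subunits carry the flavin, the iron-sulfur clusters and the quinone site, and the 6 tested had a median of 0.063. Signals of Ndufv2, an iron-sulfur protein of the NADH-oxidising arm, were 4555, 5063, 4169 and 4710.5 (wild type) against 5521, 5196, 5805 and 5143 (Irf4 null), a difference of 0.23 ± 0.077 (limma, adjusted p = 0.147). All 4 Irf4 null arrays exceeded all wild-type arrays, by a narrow gap. Its partner Ndufv1, which binds the flavin, was at 0.18 ± 0.088 (limma, adjusted p = 0.324) with overlapping arrays. Ndufs1 was at 0.023, Ndufs8 at 0.030, Ndufs3 at 0.10 and Ndufs7 at -0.068, each with overlapping groups.

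Accessory subunits surround the core, and the highest of them were Ndufa8 and Ndufb2. Signals of Ndufa8 were 2694, 2754, 2605 and 2795 (wild type) against 3291, 2985, 3161 and 3549.8 (Irf4 null), a difference of 0.26 ± 0.073 (limma, adjusted p = 0.0899). Every Irf4 null array was higher, and no other subunit had a smaller adjusted p. Ndufb2 was at 0.25 ± 0.094 (limma, adjusted p = 0.189), with Irf4 null array 2, at 2064, inside the wild-type range of 1735 to 2134. Ndufab1, the mitochondrial acyl carrier protein that is also a complex I subunit, ranged over 2309.8 to 2698 in wild type and 2881 to 3164 in Irf4 null (0.24 ± 0.075, limma, adjusted p = 0.115). Ndufb3, Ndufb9, Ndufa5 and Ndufc1 were the other accessory subunits without overlap, at 0.22, 0.24, 0.22 and 0.15. The lowest subunit was Ndufb1, with 474, 459.9, 512 and 586 (wild type) against 483, 460.1, 385 and 395 (Irf4 null), a difference of -0.23 ± 0.12 (limma, adjusted p = 0.364). Irf4 null arrays 3 and 4 were below its wild-type range and arrays 1 and 2 within it.

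The Ndufaf genes guide the assembly of complex I. The median of the 8 was 0.18, 7 were above 0 and 0 were called (limma; 3 higher and 0 lower at an unadjusted p below 0.05). Signals of Ndufaf2, which joins a late assembly intermediate, were 504, 432, 412 and 427 (wild type) against 688, 559.6, 526 and 573 (Irf4 null), a difference of 0.39 ± 0.11 (limma, adjusted p = 0.0989). Ndufaf1, a factor of the membrane arm, ranged over 888 to 1011 in wild type and 1089.7 to 1217 in Irf4 null, 0.29 ± 0.082 (limma, adjusted p = 0.0844). Neither gene overlapped between genotypes. The remaining 6 overlapped, from Ndufaf3 at -0.010 to Ndufaf4 at 0.23.

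Complex II, succinate dehydrogenase, belongs to both the tricarboxylic acid cycle and the chain. The promoters of its 4 assembly factors are shown because they include both called genes. They are the 250 bases before the transcription start from RefSeq (GRCm38.p6), 5′ to 3′ along the gene, with matches to the motifs searched in capitals.
Sdhaf1, chr7:30322376-30322625, - strand: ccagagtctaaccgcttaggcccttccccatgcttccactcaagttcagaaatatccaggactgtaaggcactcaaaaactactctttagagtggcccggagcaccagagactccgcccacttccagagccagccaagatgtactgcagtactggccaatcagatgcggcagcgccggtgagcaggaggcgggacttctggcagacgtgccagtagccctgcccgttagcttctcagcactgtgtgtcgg
Sdhaf2, chr19:10525210-10525459, - strand: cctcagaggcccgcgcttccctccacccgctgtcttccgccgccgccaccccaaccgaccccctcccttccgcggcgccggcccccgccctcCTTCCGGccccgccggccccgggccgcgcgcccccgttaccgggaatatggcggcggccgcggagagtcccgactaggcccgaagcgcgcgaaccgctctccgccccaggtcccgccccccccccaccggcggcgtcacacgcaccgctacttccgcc
Sdhaf3, chr6:6955768-6956017, + strand: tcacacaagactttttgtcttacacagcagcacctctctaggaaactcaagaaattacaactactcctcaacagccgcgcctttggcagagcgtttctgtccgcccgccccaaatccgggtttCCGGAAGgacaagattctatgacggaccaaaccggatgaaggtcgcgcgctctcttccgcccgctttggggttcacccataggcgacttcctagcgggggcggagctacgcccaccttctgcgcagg
Sdhaf4, chr1:24005641-24005890, - strand: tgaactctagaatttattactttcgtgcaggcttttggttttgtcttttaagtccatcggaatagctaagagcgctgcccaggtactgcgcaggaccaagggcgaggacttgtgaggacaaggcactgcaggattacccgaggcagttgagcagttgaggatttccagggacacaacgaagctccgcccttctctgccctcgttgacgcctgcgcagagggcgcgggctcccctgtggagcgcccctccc

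The motifs, searched on both strands, were CGCATGCGC (within sites of the respiratory gene activator NRF1), CCGGAAG (bound by GABP and other ETS factors), GGAANNGAA (the composite element of ETS factors with IRF4) and GAAANNGAA (a repeat bound by IRF proteins). The ETS motif can overlap the composite, and the composite the repeat. In the windows printed, CCGGAAG or its complement begins 158 bases before the start of Sdhaf2 and 127 bases before that of Sdhaf3, and those of Sdhaf1 and Sdhaf4 hold none of the 4 motifs. The table held 83 windows of 78 members. CCGGAAG was in 16 of the 83 (19.3%), against 6.91% of all 32851 windows of that length. CGCATGCGC was in 6 (7.23%; Atp5g2, Atp5k, Atp5l, Cox6a1, Ndufa8 and Ndufaf4), against 1.45%. The composite was in 5 (6.02%), against 6.99%, and the repeat in 5 (6.02%), against 7.13%. Counts of 3 motifs depend on their length: with a further A at the 3′ end, as first searched, the composite was in 0 of the 83 against 2.30% of all windows and the repeat in 2 of the 83 against 2.98% of all windows, and with a further G at the 5′ end the NRF1 motif was in 4 of the 83 against 0.782% of all windows. The windows were not matched for base composition, and a match is a description of letters, not a bound site.

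No subunit of complex II was called (limma; 1 of 4, Sdhd, higher at an unadjusted p below 0.05). Signals of the catalytic flavoprotein Sdha were 5345, 4653, 5770.3 and 5563 (wild type) against 5379.98, 5634, 5438 and 5288 (Irf4 null), a difference of 0.032 ± 0.077 (limma, adjusted p = 0.886). The iron-sulfur protein Sdhb was at 0.11 ± 0.075 (limma, adjusted p = 0.525) and the membrane anchor Sdhc at 0.050 ± 0.089 (adjusted p = 0.833). The other anchor, Sdhd, had signals of 2083, 2414, 2011 and 2208 (wild type) against 2391, 2499, 2527 and 2587 (Irf4 null), 0.20 ± 0.077 (limma, adjusted p = 0.206). Of its wild-type arrays, array 2 alone reached into the Irf4 null range.

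Of the 4 assembly factors of complex II, 2 rose. They were the only calls among the 89 members tested, a share not above the 2.67% called higher over all genes. Signals of Sdhaf1, which helps to insert iron-sulfur clusters into Sdhb, were 1165, 853, 898 and 1116 (wild type) against 1740.1, 1375, 1581 and 1346 (Irf4 null), a rise of 1.496-fold (95% interval 1.24 to 1.81). The lowest Irf4 null array stood above the highest wild-type array. Signals of Sdhaf4, which acts on Sdha before it joins Sdhb, were 1567, 1344, 1508 and 1575 (wild type) against 2081, 1834, 2152 and 2081 (Irf4 null), a rise of 1.36-fold (95% interval 1.19 to 1.54). These groups did not overlap either. Sdhaf2, needed to attach the flavin to Sdha, had 1877, 2068, 1729.6 and 2049 (wild type) against 2120.5, 2122, 2399 and 2653 (Irf4 null), 0.26 ± 0.10 (limma, adjusted p = 0.183), so it was higher on every Irf4 null array without passing. Sdhaf3 was at -0.038 ± 0.12 (limma, adjusted p = 0.912) with overlapping arrays.

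Both calls depend on which arrays are used. Sdhaf1 missed the threshold without wild-type array 3 or 4 and without any single Irf4 null array (limma, adjusted p from 0.0513 to 0.0898). Sdhaf4 missed it without Irf4 null array 3 or 4 (adjusted p = 0.0502 and 0.0596). The fold changes of both stayed above 0 in all 26 alternative fits.

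**Figure D2:**
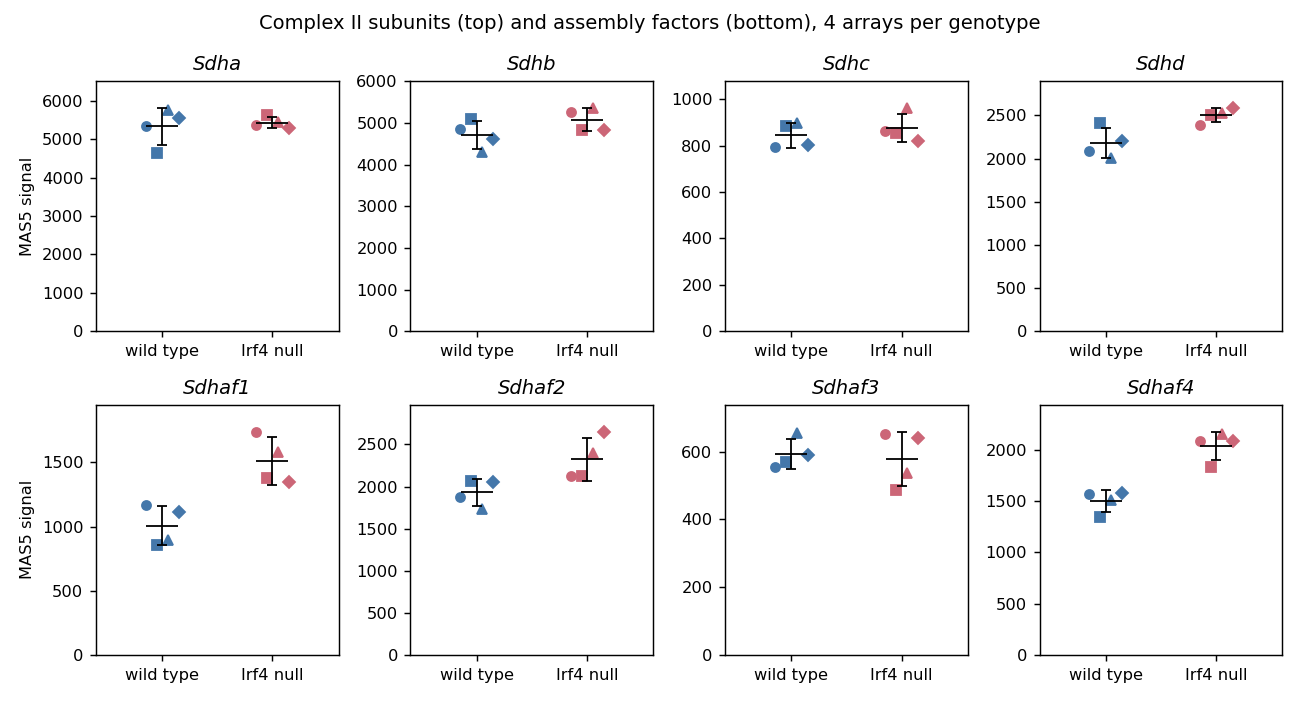
MAS5 signal (vertical axes, from 0) of the complex II subunits Sdha to Sdhd (top) and the assembly factors Sdhaf1 to Sdhaf4 (bottom), with a symbol for each of the 4 wild-type (blue) and 4 Irf4 null (red) arrays and black bars for mean and SD. For Sdhaf4 the groups separate (1344 to 1575 against 1834 to 2152), whereas those of Sdha, Sdhb and Sdhc overlap.

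Complex III, the cytochrome bc1 complex, had a median of 0.13 over 8 subunits, 5 above 0 and 3 below; 0 were called (limma; 3 higher and 0 lower at an unadjusted p below 0.05). The small subunits Uqcr10 and Uqcrq were highest. Signals of Uqcr10 were 1639, 1922, 1797 and 2101 (wild type) against 2219, 2132, 2356 and 2299.7 (Irf4 null), a difference of 0.27 ± 0.087 (limma, adjusted p = 0.125). All Irf4 null arrays were higher, the nearest pair lying close together. Uqcrq was at 0.23 ± 0.10 (limma, adjusted p = 0.240), with wild-type array 2, at 2359, in the Irf4 null range of 2169.7 to 2607. The core protein Uqcrc1 was at -0.086 ± 0.081 (limma, adjusted p = 0.657) and Uqcrb at -0.024 ± 0.064 (adjusted p = 0.897), with the groups mixed.

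Complex IV, cytochrome c oxidase, had a median of 0.13 over 10 nuclear subunits, 8 above 0 and 2 below; 0 were called (limma; 3 higher and 0 lower at an unadjusted p below 0.05). Signals of Cox7a2, the isoform found in most tissues, were 8793, 9546, 8384 and 10413 (wild type) against 10881, 9818, 11237 and 10539 (Irf4 null), a difference of 0.20 ± 0.080 (limma, adjusted p = 0.234). Wild-type array 4 lay within the Irf4 null range. Cox5a was at 0.18 ± 0.071 (limma, adjusted p = 0.228), and Cox7c was lowest at -0.11 ± 0.11 (adjusted p = 0.669). Cox6c was the only complex IV subunit without overlap, at 0.17. Ndufa4, first assigned to complex I and later to complex IV, is counted here and was at 0.13 ± 0.077 (limma, adjusted p = 0.452).

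The widely used isoforms and their tissue counterparts gave no call. Cox4i1 was at 0.083 ± 0.077 (limma, adjusted p = 0.652), Cox6a1 at -0.0079, Cox6b1 at 0.11 and Cox8a at 0.13. The counterpart Cox4i2, known from lung, ranged over 54.7 to 141 in wild type and 69.6 to 100.2 in Irf4 null, -0.23 ± 0.26 (limma, adjusted p = 0.721). The muscle isoform Cox6a2 was at -0.084 ± 0.25 and the testis isoforms Cox6b2 and Cox8c at 0.013 ± 0.29 and 0.012 ± 0.21, so that these wide errors would hide sizeable differences. The supercomplex factor Cox7a2l was at 0.073 ± 0.085 (limma, adjusted p = 0.726).

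Complex V makes ATP from the gradient. Of its 17 subunits 16 were above 0 and Atp5a1 below, with a median of 0.13; 0 were called (limma; 4 higher and 0 lower at an unadjusted p below 0.05). Atp5g1, Atp5g2 and Atp5g3 encode the same mature c subunit of the membrane rotor. Signals of Atp5g1 were 1975, 2603, 2159 and 2226 (wild type) against 2611, 2640.1, 3009 and 2634 (Irf4 null), a difference of 0.28 ± 0.094 (limma, adjusted p = 0.140). Wild-type array 2 came close to the Irf4 null arrays, and without it Atp5g1 passed (0.36, limma, adjusted p = 0.0260). That fit called 1297 of all probe sets higher and 875 lower, against 543 and 407 with all arrays. Signals of Atp5g2 were 5245, 5482, 5199 and 5869 (wild type) against 7136, 6113, 6648 and 5938 (Irf4 null), again without overlap, 0.24 ± 0.077 (limma, adjusted p = 0.124). Atp5g3 was at 0.14 ± 0.069 (limma, adjusted p = 0.332). In the catalytic head Atp5b was at 0.13 ± 0.082 (limma, adjusted p = 0.459) and Atp5a1 at -0.049 ± 0.071 (adjusted p = 0.792), and Atp5h, of the stalk, at 0.045.

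Averaged over genes, the arrays stood as follows. Relative to the wild-type mean, the 72 subunits stood at -0.023, 0.057, -0.088 and 0.055 on wild-type arrays 1 to 4 and at 0.17, 0.068, 0.17 and 0.055 on Irf4 null arrays 1 to 4 (log2 units). Arrays 1, 2 and 3 of Irf4 null were above every wild-type array, array 2 by a small margin, and array 4 lay within the wild-type range. All genes tested stood at -0.0054, 0.052, -0.017 and -0.030 in wild type and at 0.021, 0.081, 0.070 and 0.071 in Irf4 null, so on Irf4 null arrays 2 and 4 the subunits were below the mean of all genes and on arrays 1 and 3 above it. The 4 complex II subunits stood at -0.023, 0.035, -0.010 and -0.0021 and at 0.088, 0.085, 0.16 and 0.061, without overlap, but on Irf4 null array 4 they were below the mean of all genes and on array 2 close to it. The 12 assembly factors stood at 0.021, -0.034, -0.077 and 0.090 in wild type and at 0.27, 0.16, 0.26 and 0.19 in Irf4 null, also without overlap and above the mean of all genes on every Irf4 null array. Members share the same 8 libraries, and these means carry no p-value.

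**Figure D3:**
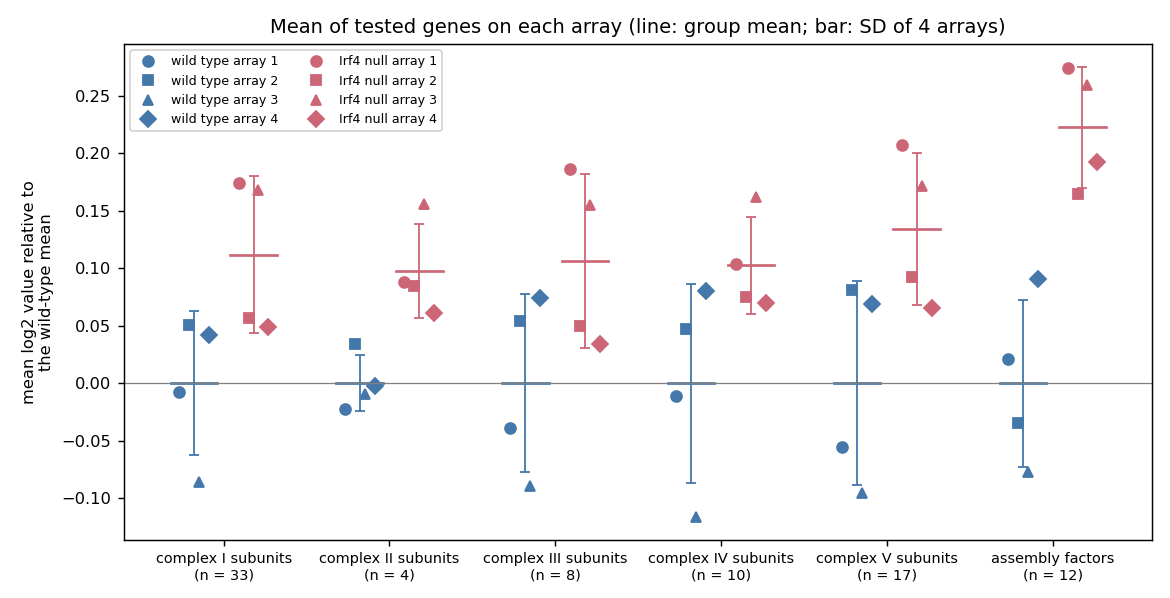
Mean log2 value relative to the wild-type mean (vertical axis) of the subunits of each complex and of the 12 assembly factors on each array; blue symbols are wild-type arrays, red symbols Irf4 null arrays, shapes the array numbers, lines the group means and bars the SD of 4 arrays. The genotypes overlap for complexes I, III, IV and V, and for the assembly factors the lowest Irf4 null array (0.16) lies above the highest wild-type array (0.090).

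The subunit median differed in size between the Xist classes. Adjusted for Xist class, it was 0.11 and 65 of 72 were above 0. Among the Xist-high arrays, 1 Irf4 null against 3 wild-type arrays, it was 0.19 with 67 above 0. Among the Xist-low arrays, 3 Irf4 null against 1 wild-type array, it was 0.040 with 47 above 0. A lone array is assumed to vary like the others in such a fit. The interaction of genotype and Xist class called 0 members and 0 of all 27022 probe sets (limma), with 3 of the 89 members and 2038 of all probe sets at an unadjusted p below 0.05. Sdhaf1 was at 0.72 within the Xist-high and 0.74 within the Xist-low arrays, and Sdhaf4 at 0.42 and 0.58, none of the 4 called (limma, adjusted p from 0.0928 to 0.209). With the Xist-high term both were called (0.73, adjusted p = 0.00758, and 0.50, adjusted p = 0.0166), beside 3.08% of all genes.

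Markers of other blood cells were present and moved with the arrays. Of 64 markers of T cells, NK cells, neutrophils, macrophages and monocytes, red cell precursors and platelets, 55 were tested. Their mean relative to wild type was -0.46, 1.03, -0.24 and -0.33 on wild-type arrays 1 to 4 and -0.017, 1.10, 1.40 and 0.51 on Irf4 null arrays 1 to 4. Wild-type array 2 was thus at the level of the Xist-low Irf4 null arrays 2 and 3. Neutrophil markers summed to 5911 to 55599.9 in wild type and 11594 to 75177 in Irf4 null, and T cell markers to 1312 to 2911 and 1642 to 11464; no marker was at 0 on all arrays. Of these lists Prf1, a killer cell protein (1.33, limma, adjusted p = 0.0122), and Ppbp, a platelet chemokine (0.81, adjusted p = 0.0415), were called. These 2 of 55 tested markers are to be read beside 4.37% called over all genes. Of 19 cell cycle genes 18 were above 0, with a median of 0.77. Nusap1 alone was called, rising by 1.13 (limma, adjusted p = 0.0336), beside 2.67% called higher over all genes. The cell cycle median was 0.24 adjusted for Xist class, 0.19 with the other-cell covariate and 0.17 within the Xist-low arrays. Of 26 alternatives, Nusap1 lost its call in 13, Ppbp in 16, including that with the Xist-high term (0.90, adjusted p = 0.0550), and Prf1 in 5. Of 5 tested plasma cell markers 3 fell, beside 1.7% called lower over all genes: Jchain at -6.00, Sdc1 at -2.69 and Igha at -6.80. The subunit median was 0.094 with the mean of the other-cell markers as a covariate, and 0.072 with that of the cell cycle genes. Sdhaf1 (0.71 and 0.77) and Sdhaf4 (0.51 and 0.54) were called in both of these fits.

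Many members have further probe sets. The 94 genes have 185 single-gene probe sets, of which 170 were bright enough to test. Of 49 members with several tested probe sets, 33 had all of them on the same side of 0. For 2 members a probe set other than the brightest was called, among 81 tested, beside 3.52% of all probe sets (2.01% higher, 1.51% lower). Another Uqcr10 probe set had 525, 565, 526 and 551 (wild type) against 757, 688, 804 and 675 (Irf4 null), 0.42 ± 0.093 (limma, adjusted p = 0.0348), and the third was at 0.41 ± 0.12 (adjusted p = 0.100). All 3 probe sets of this gene were above 0. For Ndufa7, 1 of 5 probe sets was called, 0.41 ± 0.082 (limma, adjusted p = 0.0206), with 2109 to 2435 in wild type and 2868 to 3359.7 in Irf4 null, and the others were between 0.014 and 0.20. With the tested probe sets of each gene averaged, which also cut the number of tests from 27022 to 11802, Uqcr10 (0.37, limma, adjusted p = 0.0189) and Ndufaf1 (0.29, adjusted p = 0.0412) were called beside Sdhaf1 and Sdhaf4. Ndufaf1, Sdhaf1 and Sdhaf4 have 1 probe set each, and their fold changes were as before. Probe sets disagreed most for Uqcrq (-0.21 to 0.73) and Ndufa10 (-0.76 to 0.17). Others with probe sets on both sides of 0 were Ndufab1 (-0.35 to 0.24) and Atp5g2 (-0.17 to 0.24), whose brightest probe set did not overlap between genotypes. Ndufb2 (-0.042 to 0.27) and Ndufb8 (-0.023 to 0.22) were also among them.

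Genes that serve the chain without carrying the prefixes were read from lists written for this comparison. Of 20 assembly factors of complex IV 18 were above 0, with a median of 0.13 and 0 called (limma; 4 higher and 0 lower at an unadjusted p below 0.05). For complex I, 6 of 7 were above 0 with a median of 0.20 and 0 called (limma; 2 higher at an unadjusted p below 0.05). For complex V all 4 were above 0 with a median of 0.13 and 0 called (limma; 0 at an unadjusted p below 0.05). All 15 genes for complexes II and III and ubiquinone synthesis were above 0, with a median of 0.17, and 1 was called. That gene, Coq9, a lipid-binding protein of ubiquinone synthesis, had 685, 738, 804 and 678 (wild type) against 920.4, 1005, 1058 and 942 (Irf4 null), 0.43 ± 0.092 (limma, adjusted p = 0.0293). Its groups did not overlap, but its call was lost in 13 of 26 alternative fits, and averaged over its probe sets the difference was 0.18 (adjusted p = 0.481).

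Among 13 electron carriers and carriers of nucleotides and phosphate, 10 were above 0, with a median of 0.074 (-0.011 within the Xist-low arrays). Of the 13, 1 rose and 1 fell, beside 2.67% called higher and 1.7% lower over all genes. Signals of Slc25a4, an ADP/ATP carrier that exports the ATP made by complex V, were 3889.6, 4315, 3599.9 and 4189.9 (wild type) against 5199.5, 5561, 5065 and 5405 (Irf4 null), a rise of 0.41 ± 0.075 (limma, adjusted p = 0.0134). Signals of Gpd2, which feeds electrons from glycerol 3-phosphate into ubiquinone, were 3086, 2415, 2775 and 2884 (wild type) against 2315, 2043, 2164 and 1916 (Irf4 null), a difference of -0.40 ± 0.093 (limma, adjusted p = 0.0420). Neither overlapped between genotypes. With the Xist-high term neither was called: Slc25a4 was at 0.36 (limma, adjusted p = 0.0522) and Gpd2 at -0.29 (adjusted p = 0.131). Of 26 alternatives, Slc25a4 lost its call in 9 and Gpd2 in 15. Cytochrome c, Cycs, was at 0.22 ± 0.079 (limma, adjusted p = 0.180), and Cyc1, the cytochrome c1 of complex III whose name falls outside the rule, at 0.028.

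The 13 tested genes of the tricarboxylic acid cycle and 3 of pyruvate dehydrogenase, which feeds it, had a joint median of 0.058 with 0 called (limma; 2 higher and 3 lower at an unadjusted p below 0.05). It was -0.013 with the cell cycle covariate and -0.027 within the Xist-low arrays. Of the 16 genes 3 were lower on all Irf4 null arrays, against 5.71% of all genes. They were Fh1 (-0.27 ± 0.067, limma, adjusted p = 0.0504), Idh3g (-0.20) and Ogdh (-0.17). Only 1, Suclg2 (0.32), was higher on all Irf4 null arrays, against 7.13% of all genes. The 16 regulators of mitochondrial biogenesis had a median of -0.033, 8 above and 8 below 0, and 0 called (limma; 1 higher and 1 lower at an unadjusted p below 0.05). Tfam, which packages mitochondrial DNA, was at -0.12 and Nrf1 at -0.18. Of 8 hypoxia and mitophagy genes 4 were above 0 and 1 fell, beside 1.7% called lower over all genes. Signals of that gene, Pink1, the kinase that marks damaged mitochondria, were 1229, 1582, 1750.1 and 1794 (wild type) against 1158, 1033, 993 and 1019 (Irf4 null), a difference of -0.58 ± 0.12 (limma, adjusted p = 0.0256). Wild-type array 1 lay nearest to the Irf4 null arrays, and with the Xist-high term Pink1 was not called (-0.53, limma, adjusted p = 0.0773). Its call was lost in 12 of 26 alternatives. The 10 glycolysis enzymes had a median of 0.21, with 0 called (limma; 3 higher and 0 lower at an unadjusted p below 0.05). That median was 0.068 adjusted for Xist class, 0.029 and 0.00093 with the other-cell and cell cycle covariates, and -0.048 within the Xist-low arrays.

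**Figure D4:**
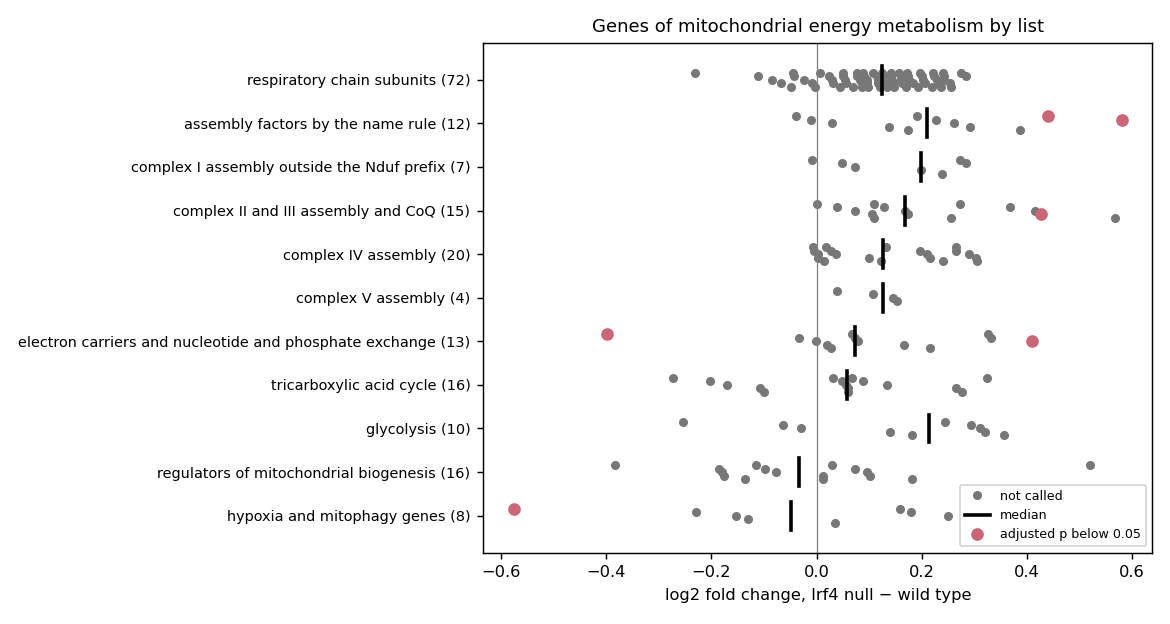
Log2 fold change (horizontal axis, Irf4 null minus wild type) of every tested gene among the respiratory chain subunits, the assembly factors of the name rule and lists of related genes (vertical axis, number of genes in brackets); red points have an adjusted p below 0.05 and black bars are medians; the tricarboxylic acid cycle row includes 3 genes of pyruvate dehydrogenase. The row labelled for complexes II and III holds genes of complex III assembly and ubiquinone synthesis, and no assembly factor of complex II. The subunits centre on 0.12, the 12 assembly factors on 0.21 and the biogenesis regulators on -0.033.

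Over the 8 arrays, the genes outside the rule whose log2 values followed the mean of the subunits most closely were Psmc2, an ATPase of the proteasome (Pearson r = 0.985), Hs6st1, a heparan sulfate sulfotransferase (r = 0.974), and Uqcc2, an assembly factor of complex III (r = 0.973). Their fold changes were 0.084, 0.42 and 0.27, none called (limma, adjusted p = 0.532, 0.131 and 0.176). These are the highest correlations among 11709 genes over 8 libraries and serve as a description.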

How the data were processed

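The members and gene lists were chosen with earlier results of these data known. RNA of splenic B cells (4 wild-type and 4 Irf4 null samples) was hybridised to Affymetrix arrays. The deposited values are MAS5 signals, a linear intensity for each probe set, per the submitters' processing notes; no source used here states the version or scaling target. Without the highest and lowest 2%, the mean is 500.003 on every array, so nothing was rescaled. Detection calls were not used here. The number of arrays limits the precision.

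Of 45101 probe sets, 34958 have 1 gene symbol in the platform annotation and 932 several, and the rest are unnamed here; 34741 matched a RefSeq gene (GRCm38.p6), which changed no member. After removal of 64 control probe sets, signals were taken as log2(signal + 16), and the lowest 40% by mean log2 value were dropped (up to a signal of 42.9), leaving 27022. The added 16 shrinks folds of dim genes. Limma 3.58.1 in R 4.3.3 (lmFit, eBayes with a variance trend) compared genotypes, with Benjamini-Hochberg adjustment at 0.05. The fit was tried on simulated data with independent probe sets and changes larger than those of the members. That trial does not show how well differences as small as those here are found. Xist-high means a signal over 1000. Lists carry counts and medians, and no test of the list.

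The genes named are Irf4, every called member, the 2 highest and 2 lowest tested genes of each complex, the paired complex IV isoforms, up to 4 called genes per list and the 3 genes nearest in pattern. Other genes named for a role, separated arrays or a second probe set were chosen after their values were seen, and 3 promoter motifs were shortened by a letter after first counts were seen, which changed their counts. Alternatives changed normalization, pseudocount, filter, variance model, probe set rule, threshold, covariates and arrays; the cell cycle covariate and the interaction were added after the data were seen.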

Additional observations from a re-analysis of the deposited data

Results flagged for a closer look

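Among the groups of 4 arrays of the named genes and of the member and marker means, 4 had an array far from the other 3 by Dixon's test at the 95% level. Chance flags about 1 in 20 such groups. The 38 tested named genes alone each gave a wild-type and an Irf4 null group. For independent groups 4 flags would thus be no more than chance would give. The groups share the same arrays and are not independent, and Jchain and the other-cell mean were both flagged on wild-type array 2. Atp5g1, a gene of the ATP synthase c subunit, read 3009 on Irf4 null array 3, the others lying between 2611 and 2640.1. The mean of the other-cell markers was 1.03 on wild-type array 2, and between -0.46 and -0.24 on the rest. The plasma cell gene Jchain read 12829 on wild-type array 2, and between 2222 and 2767 on the rest. The spindle gene Nusap1 read 991 on Irf4 null array 1, the only Xist-high Irf4 null array, and between 1461 and 1553 on the rest.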

How the results depend on the processing

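Of the 26 alternatives, called members numbered 1 with arrays set to a common median, 4 with all probe sets of a gene averaged (11802 tests in place of 27022; Ndufaf1, 1 of the 2 gained, has a single probe set and an unchanged fold), 3 with array weights, 0 without the variance trend, 0 within the Xist-high arrays, 0 within the Xist-low arrays, 0 at a threshold of 0.01, and between 0 and 5 when an array was left out; the other alternatives gave 2. Called subunits numbered 1 with array weights (Atp5g1) and 1 with probe sets averaged (Uqcr10), and between 0 and 3 when an array was left out. Without wild-type array 2, Atp5g1, Ndufb8 and Ndufc2 were called. Calls over all probe sets then came to 1297 higher and 875 lower, against 543 and 407 in the main fit. With array weights they also grew, to 1001 higher and 745 lower. No member was called lower in any alternative run. Within the Xist-high arrays the medians of all subunits, complexes I, II, III and V and the complex IV isoforms were 0.19, 0.21, 0.12, 0.27, 0.23 and -0.26, and within the Xist-low arrays 0.040, 0.037, 0.030, -0.0042, 0.043 and 0.16. The complex IV subunit median was 0.039 with the cell cycle covariate, and that of the isoforms ran from -0.14 to 0.11 when an array was left out. Over all groups of members and alternatives, 222 of 234 medians were above 0. Of 647 values of uncalled named genes, 49 had the other sign. Causes were not tested. The labels do not say whether same-numbered samples pair. Correlations of their deviations were 0.24, 0.28, -0.030 and -0.081, and only numbers 1 and 2 correlated best with their own. So few arrays cannot settle whether they pair. With the replicate block Sdhaf1 and Sdhaf4 were the 2 called members, and 690 probe sets were higher and 478 lower, against 543 and 407. Signals near background limit the dim isoforms.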
